A study of Mus musculus with 6 samples.

Results

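The genes described here are 9 members of the cadherin and catenin families, which were chosen by name and were found among 19057 genes with a named probe on the array: 6 classical cadherins (*Cdh1*, *Cdh2*, *Cdh3*, *Cdh4*, *Cdh6* and *Cdh11*) and 3 catenins (*Ctnna1*, *Ctnnb1* and *Ctnnd1*). They were read by 23 probes. Gene expression was measured in whole C3H/HeH embryos at E8.0 to E8.5, in 3 pools of 8 *Zic2* iso/iso embryos and 3 pools of 8 wildtype embryos, all from crosses between *Zic2* iso/+ parents. The *iso* allele carries a premature stop codon in *Zic2*, which encodes a zinc finger transcription factor. It came from a chemical mutagenesis of males of another strain, followed by several backcrosses, so mutant embryos can carry donor sequence around *Zic2* on chromosome 14, where none of the 9 genes lies. RNA of each pool went on 1 Illumina Mouse WG6 v2 array, and the brightness of a probe is its measure of the transcript.

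Classical cadherins are transmembrane proteins that hold neighbouring cells together in adherens junctions by binding, in the presence of calcium, to cadherins on the next cell. Inside the cell their tail binds β-catenin and p120-catenin, and α-catenin links β-catenin to actin. In the early mouse embryo E-cadherin marks the epiblast, the surface ectoderm and the endoderm, whereas N-cadherin replaces it in the mesoderm that leaves the primitive streak and in the closing neural tube. β-catenin is also the transducer of canonical Wnt signals.

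No cadherin or catenin gene passed the test between genotypes. The largest differences were those of *Cdh4*, which encodes R-cadherin and was lower in *Zic2* iso/iso pools by a log2 difference of −0.36, and of *Cdh1*, which encodes E-cadherin and was higher by 0.29. In both genes the mutant pools did not overlap the wildtype pools. The other 7 genes differed by at most 0.14 in either direction, and their pools overlapped. All values are log2 intensities after quantile normalisation between arrays, the brightest probe stands for a gene, and differences are *Zic2* iso/iso minus wildtype, with the pools of each genotype given in the order 1 to 3 and adjusted p-values from limma over all 45281 probes and a threshold of 0.05. Of the 9 genes 0 passed, beside 0.0442% of all probes, and 2 had an unadjusted p under 0.05, beside 6.02% of all probes. Pools did not overlap in 1 gene that was higher in the mutant pools (5.18% of all probes) and in 1 that was lower (5.46% of all probes). All 9 genes belong to the 10037 genes whose brightest probe was above background in both genotypes, where the shares were higher. Of those 10037 genes 0.169% passed, 10.9% had an unadjusted p under 0.05, and 11.6% had pools without overlap in either direction. The median difference of the 9 genes was 0.0001, against −0.0067 for the 10037 genes.

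Between any pair of pools Pearson's r across probes was 0.993 to 0.996, a description only. Background was not subtracted from the deposited intensities, so fold changes are compressed, most of all in dim genes, and the probes of different genes differ in brightness for reasons other than transcript level. A set of 1608 probes of genes that embryos hardly use, such as those of olfactory receptors, set a background level of 7.47, and all 9 genes were above it in both genotypes, *Cdh2* and *Cdh11* only just. *Zic2* itself, read by its brightest probe, was at 7.64, 7.57 and 8.01 in the *Zic2* iso/iso pools and at 8.27, 8.06 and 8.00 in the wildtype pools. Those groups overlapped, and since the allele is a stop codon the transcript level does not check the labels. Markers of the tissues of a whole embryo at this stage were found, among them *Otx2* of the anterior neural plate, *Pdgfra* of the mesoderm, *Myl4* of the heart tube, *Ttr* of the visceral endoderm and *Hbb-bh1* of primitive blood. A two-sided exact permutation test of 3 pools with 3 cannot give a p below 0.1. Each pool is a separate sample by its label. The limma p-values set the genotype difference against the spread between these pools, with information on that spread shared over all probes. Fewer cells of a type and less RNA per cell cannot be told apart in whole embryos.

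**Figure D1:**
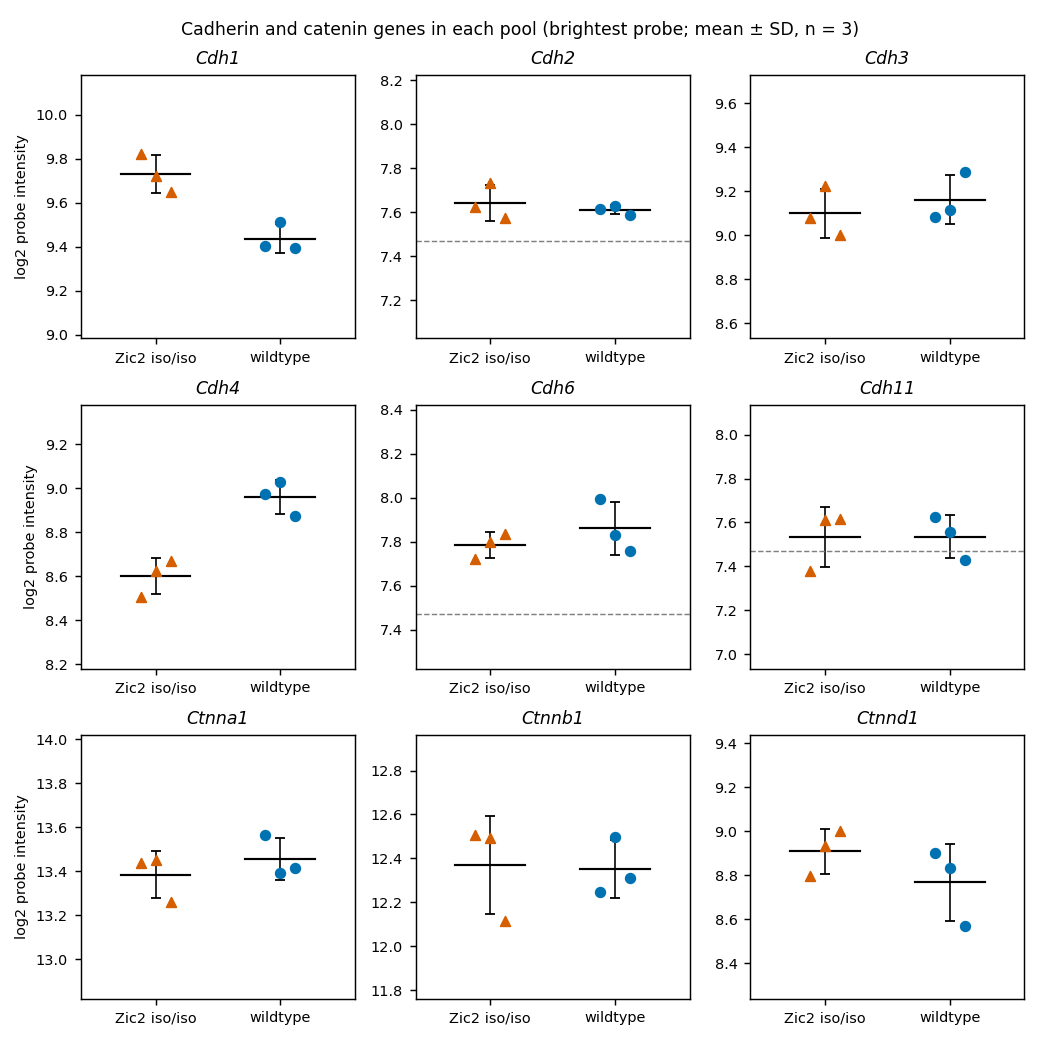
Quantile-normalised log2 probe intensity (vertical axis, 1 panel per gene, each spanning the same range) in each pool of Zic2 iso/iso (triangles, left) and wildtype (circles, right) embryos. Bars show the mean ± SD (n = 3 pools), and dashed lines mark the background level of 7.47 in the panels that reach it. The genotypes are apart in Cdh1 and Cdh4 and overlap in the other 7 genes.

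*Cdh1*, whose product holds epithelial cells together, was at 9.82, 9.72 and 9.65 in the *Zic2* iso/iso pools and at 9.40, 9.51 and 9.39 in the wildtype pools. Every mutant pool was above every wildtype pool, with mutant pool 1 the highest of the 6. The means were 9.73 ± 0.09 in *Zic2* iso/iso and 9.44 ± 0.07 in wildtype pools (SD, n = 3 each), a 1.23-fold difference. The log2 difference of 0.29 (standard error 0.07, 95% interval 0.14 to 0.45) had an adjusted p of 0.38 in limma and ranked 138th of 45281 probes by p. In the exact permutation test it reached p = 0.1 (two-sided), the lowest value possible here. As deposited, before normalisation, the intensities of this probe were 1137, 841 and 703 in the mutant pools and 634, 757 and 634 in the wildtype pools, so that mutant pool 3 was then below wildtype pool 2. A second, dim probe of *Cdh1*, which the array's annotation ties to a cDNA clone and not to a RefSeq transcript, read 7.69, 7.60 and 7.59 in the mutant pools and 7.50, 7.62 and 7.77 in the wildtype pools. It lay just above background, overlapped between genotypes and differed by −0.01 (95% interval −0.17 to 0.16). The mean of both probes differed by 0.14 (limma adjusted p = 0.83).

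*Cdh3*, which encodes P-cadherin of the placenta and of ectodermal epithelia, is the next protein-coding gene to *Cdh1* on chromosome 8. It was at 9.08, 9.22 and 9.003 in the *Zic2* iso/iso pools and at 9.08, 9.12 and 9.29 in the wildtype pools. The pools overlapped, and the difference of −0.06 (95% interval −0.23 to 0.11, adjusted p = 0.97) had the sign opposite to that of its neighbour. The other 3 probes of *Cdh3* did not run one way. The second brightest read 8.10, 8.09 and 7.96 in the mutant pools and 8.00, 7.87 and 7.71 in the wildtype pools. Its difference was 0.19 (95% interval 0.02 to 0.37, adjusted p = 0.80). The remaining pair was at −0.08 and −0.15, the dimmer of them below background on average. The 4 probes thus ran between −0.15 and 0.19, with overlapping pools in each.

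*Cdh4* encodes R-cadherin, a classical cadherin best known from retina, brain and kidney. Its brightest probe read 8.51, 8.63 and 8.67 in the *Zic2* iso/iso pools and 8.97, 9.03 and 8.88 in the wildtype pools. The highest mutant pool stayed below the lowest wildtype pool, by more than the range within either genotype. As deposited, the intensities of this probe were 451, 393 and 362 in the mutant pools and 471, 537 and 442 in the wildtype pools, so that mutant pool 1 was then above wildtype pool 3. The means were 8.60 ± 0.08 in *Zic2* iso/iso and 8.96 ± 0.08 in wildtype pools (SD, n = 3 each), a 1.28-fold difference. The log2 difference of −0.36 (standard error 0.07, 95% interval −0.51 to −0.20) ranked 65th of 45281 probes by p, with an adjusted p of 0.18 in limma, and the exact permutation test again gave p = 0.1. The annotation gives this probe the symbol *Cdh4* but no transcript record. The probe that is tied to the RefSeq transcript of *Cdh4* was at 7.44, 7.67 and 7.20 in the mutant pools and 7.44, 7.39 and 7.44 in the wildtype pools, below background on average. It overlapped between genotypes (difference 0.01, 95% interval −0.20 to 0.23), so the lower level in mutant pools rests on a single probe.

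*Cdh2*, which encodes N-cadherin of the neural tube, the heart and the mesoderm, was hardly measured. Its brightest probe, tied to a cDNA clone, read 7.62, 7.73 and 7.57 in the *Zic2* iso/iso pools and 7.62, 7.63 and 7.59 in the wildtype pools. All 6 values lie just above the background level, and the genotypes overlapped. The difference was 0.03 (95% interval −0.11 to 0.18, adjusted p = 0.98). The probe tied to the RefSeq transcript was below background in all 6 pools, with 7.43, 7.23 and 7.34 in the mutant and 7.38, 7.22 and 7.12 in the wildtype pools. The deposited intensities of the brighter probe were 230, 211 and 176 in the mutant pools and 194, 198 and 182 in the wildtype pools, close to the array medians of 154 to 187.

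The type II cadherins were also dim. *Cdh6*, which encodes K-cadherin of the kidney and of the neural folds, was at 7.72, 7.80 and 7.84 in the *Zic2* iso/iso pools and at 8.00, 7.83 and 7.76 in the wildtype pools. Its pools overlapped, with a difference of −0.08 (95% interval −0.24 to 0.09, adjusted p = 0.96). *Cdh11*, which encodes a cadherin of mesenchyme and bone-forming cells, was at 7.38, 7.61 and 7.62 in the mutant pools and at 7.62, 7.56 and 7.43 in the wildtype pools. One pool of each genotype was below the background level, and the means did not differ beyond the spread (difference 0.0001, 95% interval −0.18 to 0.18, adjusted p = 1.0). A second probe of *Cdh11* was at 0.06 and the third, below background, at −0.04.

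**Figure D2:**
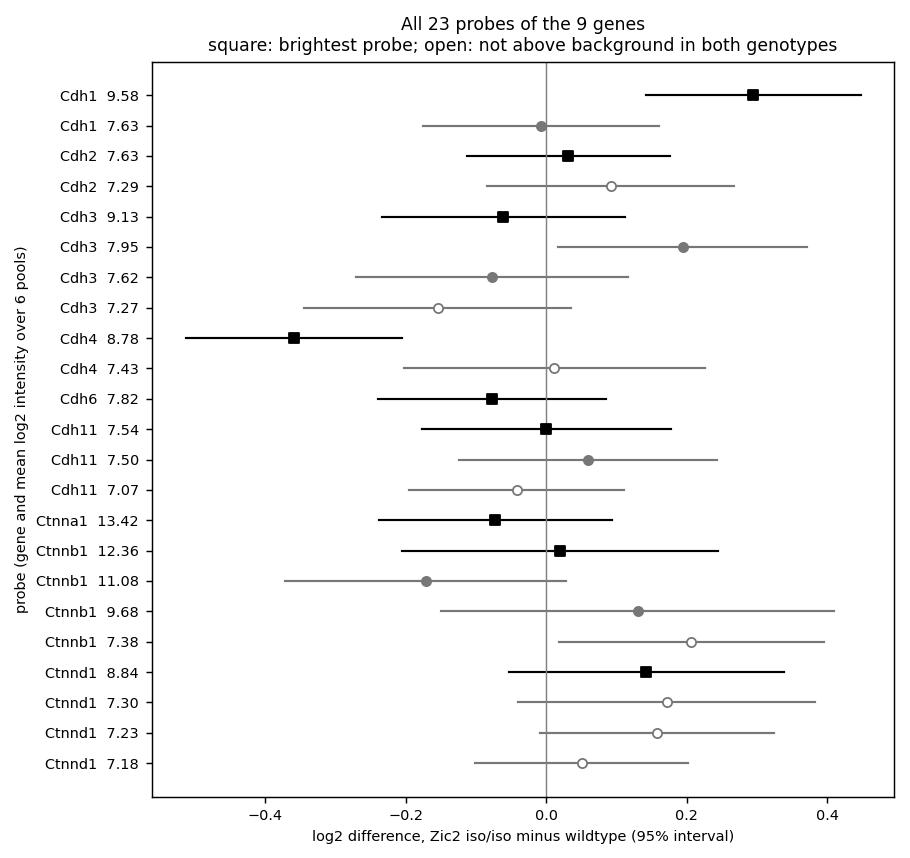
Log2 difference between Zic2 iso/iso and wildtype pools (horizontal axis, with the 95% interval from limma) for all 23 probes of the 9 genes, labelled with the gene and the mean log2 intensity over 6 pools. Squares are the brightest probe of a gene and open symbols were not above background in both genotypes. The bright probes of Cdh1 (0.29) and Cdh4 (−0.36) stand apart from 0, and the dimmer probes of the same genes (−0.01 and 0.01) do not. The intervals of the second Cdh3 probe (0.19) and the dimmest Ctnnb1 probe (0.21) also lie above 0.

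The catenins are the cytoplasmic partners of the cadherins. *Ctnna1*, which encodes αE-catenin, the link from the junction to actin, was at 13.44, 13.45 and 13.26 in the *Zic2* iso/iso pools and at 13.57, 13.39 and 13.41 in the wildtype pools. These overlapped, and the difference of −0.07 had a 95% interval of −0.24 to 0.09 (adjusted p = 0.96). *Ctnnb1*, which encodes β-catenin, was at 12.51, 12.49 and 12.11 in the mutant pools and at 12.25, 12.50 and 12.31 in the wildtype pools. The mutant pools spanned the wildtype range, from below it to just above it, with mutant pool 3 the lowest of the 6. The difference was 0.02 (95% interval −0.21 to 0.24, adjusted p = 1.0). Its 3 other probes differed by −0.17, 0.13 and 0.21 from the brighter to the dimmer, each with overlapping pools. The last was below background in every wildtype pool and in mutant pool 2 (7.39), and its mutant mean of 7.49 was just above it. *Ctnnd1*, which encodes p120-catenin, a protein that keeps cadherins at the membrane, was at 8.80, 8.93 and 8.999 in the mutant pools and at 8.90, 8.83 and 8.57 in the wildtype pools. Only wildtype pool 3 stood below the mutant range, and the difference of 0.14 (95% interval −0.05 to 0.34) did not pass (adjusted p = 0.92). The 3 dimmer probes of *Ctnnd1* were all below background on average and differed by 0.05 to 0.17. The one with the largest difference read 7.63, above background, in mutant pool 3. For *Ctnna1*, read by a single probe, and *Ctnnb1*, the intervals of the brightest probe reached no further than 0.24 in either direction. Those of the other *Ctnnb1* probes above background reached further, from −0.37 to 0.03 and from −0.15 to 0.41.

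Of the 23 probes, 15 were above background in both genotypes and 0 passed the test, while 4 had an unadjusted p under 0.05. These 4 were the bright probes of *Cdh1* and *Cdh4*, the second probe of *Cdh3* and the dimmest probe of *Ctnnb1*. The genotypes did not overlap in the first pair only.

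*Cdh1* was set against *Cdh2* within each pool, as a view of epithelial against neural and mesodermal content. Because probes differ in brightness, the size of this value says nothing about which gene is more abundant, and only its change between genotypes can be read. The log2 value of *Cdh1* minus that of *Cdh2* was 2.20, 1.99 and 2.08 in the *Zic2* iso/iso pools and 1.79, 1.88 and 1.81 in the wildtype pools. The lowest mutant pool was above the highest wildtype pool. The means were 2.09 ± 0.10 in *Zic2* iso/iso and 1.83 ± 0.05 in wildtype pools (SD, n = 3 each), a difference of 0.26 (two-sided p = 0.1 by exact permutation, the lowest value possible). It is the difference of *Cdh1* (0.29) less that of *Cdh2* (0.03), which was read near background. When set against *Ctnnb1*, *Cdh1* differed between genotypes by 0.28 and *Cdh2* by 0.01. Averaged over all probes of each gene, *Cdh1* minus *Cdh2* differed by 0.08 (exact permutation p = 0.5).

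**Figure D3:**
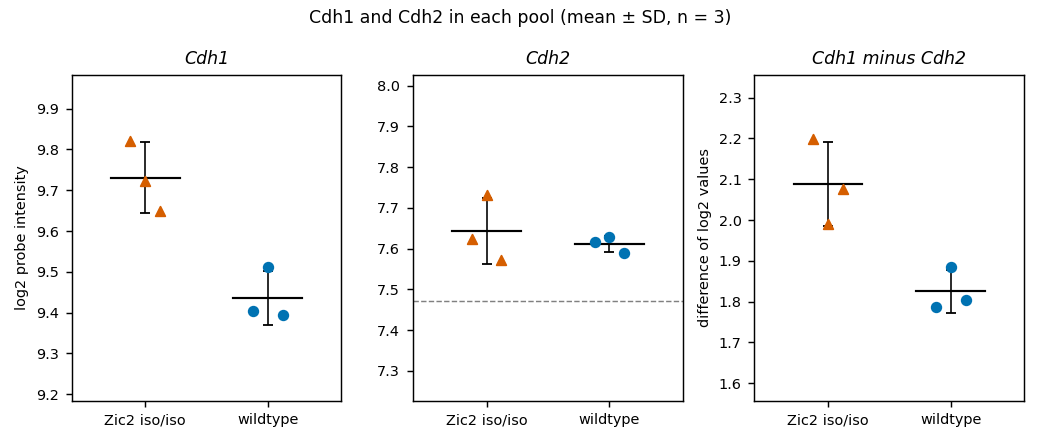
Log2 probe intensity of Cdh1 (left) and Cdh2 (middle) and the difference of their log2 values (right) in each pool of Zic2 iso/iso (triangles) and wildtype (circles) embryos, with means and the SD of 3 pools. A dashed line marks the background. The genotypes are apart in Cdh1 and in the difference (2.09 against 1.83), while Cdh2 overlaps near background.

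The other genes of the junction were taken from lists. Of 11 other classical cadherins, all with a probe, only 2 were above background and none passed the test. *Cdh5*, which encodes VE-cadherin of the endothelium, differed by −0.12 (standard error 0.10) with overlapping pools. *Cdh15*, which encodes M-cadherin of muscle, was at 7.63, 7.49 and 7.58 in *Zic2* iso/iso pools and 7.64, 7.64 and 7.79 in wildtype pools, near background but without overlap (adjusted p = 0.90). Of 10 other catenins and catenin regulators, 6 were above background and none passed. The largest difference among them was that of *Pkp4*, a relative of p120-catenin, at −0.13 (standard error 0.09), followed by *Ctnnbip1*, which encodes an inhibitor of β-catenin, at 0.04 and *Ctnnbl1* at −0.02. The pools of the 2 genotypes were apart in 3 of the 10 genes, higher in the mutant pools in each (beside 5.18% of all probes), none of them above background in both genotypes.

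Of 20 partners of the adherens junction, such as nectins and actin-binding proteins, all were above background and none passed the test. Their differences were above 0 in 15 and below 0 in 5, with a median of 0.09, against −0.0067 over all genes above background. *Actn4*, which encodes an α-actinin that bundles actin, was at 10.38, 10.43 and 10.58 in the *Zic2* iso/iso pools and at 10.28, 10.20 and 9.78 in the wildtype pools. Its pools did not overlap, and the difference of 0.37 (standard error 0.11) had an adjusted p of 0.62. Without wildtype pool 3, the lowest, the difference of *Actn4* was 0.22. *Ptprf*, a receptor phosphatase gene, differed by 0.23 and *Vezt*, which encodes vezatin of the cadherin complex, by 0.22, both with overlapping pools. Beside *Actn4*, the pools were apart in *Cttn*, which encodes cortactin (0.19, adjusted p = 0.79), named after its values were seen. Thus the pools were apart in 2 of the 20 genes, beside 11.6% of all genes above background.

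Transcription factors that repress *Cdh1* or act in the transition from epithelium to mesenchyme were more spread. Of 10 such genes 9 were above background and none passed the test, with 4 differences above 0, 5 below and a median of −0.02. *Zeb1*, which encodes a repressor of *Cdh1*, was at 9.14, 9.57 and 9.28 in the *Zic2* iso/iso pools and at 9.85, 9.69 and 9.72 in the wildtype pools. Every mutant pool was lower, by −0.42 on average (standard error 0.10, adjusted p = 0.34). *Foxc2*, a forkhead gene of the paraxial mesoderm, was at 7.54, 7.66 and 7.68 in the mutant pools and 7.98, 7.95 and 8.05 in the wildtype pools, again without overlap (difference −0.36, adjusted p = 0.14). *Snai2*, which encodes another repressor of *Cdh1*, ran the other way. It was at 9.53, 9.40 and 9.34 in the mutant pools and 9.04, 9.11 and 9.15 in the wildtype pools (difference 0.32, standard error 0.07, adjusted p = 0.26). *Snai1*, the related gene of the primitive streak, differed by 0.05 with overlapping pools, and *Zeb2* by −0.05. Of the 9 genes above background, the pools were apart in 1 that was higher and in 2 that were lower. The share over all genes above background was 11.6% for both directions together.

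**Figure D4:**
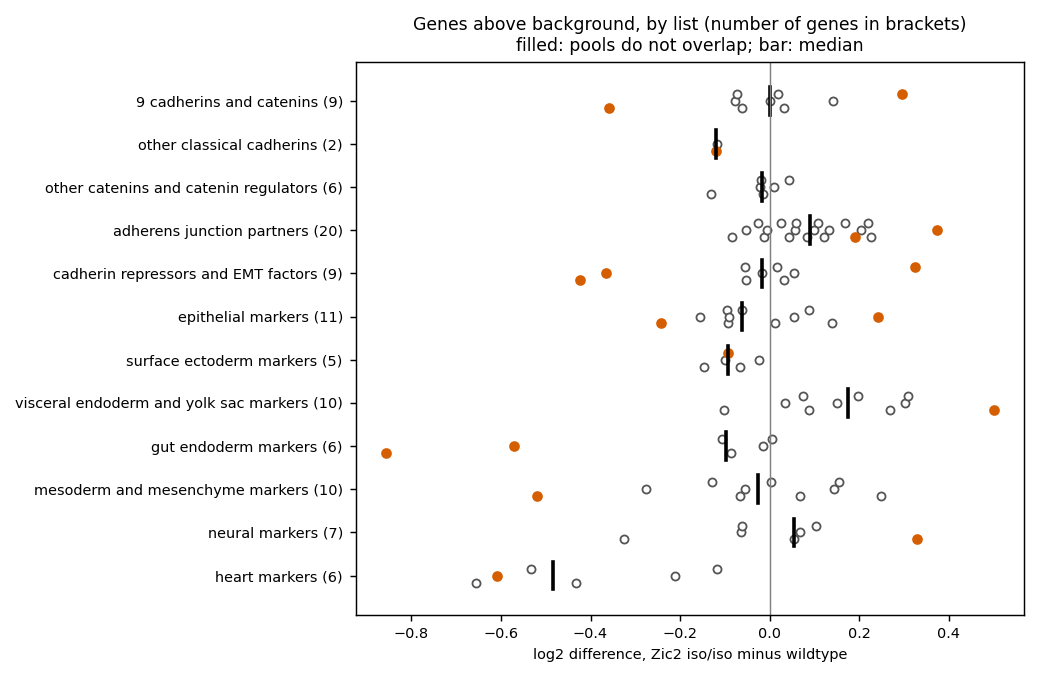
Log2 difference between Zic2 iso/iso and wildtype pools (horizontal axis) for the genes above background in 12 lists, with the number of genes in brackets. Filled points are genes whose pools do not overlap and bars are medians. The 9 cadherins and catenins centre on 0, the junction partners lie mostly above it and the heart markers below it.

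Marker genes of the tissues that use *Cdh1* or *Cdh2* were read in the same pools. Of 15 epithelial markers, 14 had a probe, 11 were above background and none passed the test, with 5 differences above 0 and 6 below (median −0.06). The summed linear level of the list ran from 27874 to 29671 in *Zic2* iso/iso pools and from 26840 to 29725 in wildtype pools, and the groups overlapped. The brightest of them were *Cldn6*, a claudin gene (−0.09), and *Spint1*, which encodes a protease inhibitor of epithelia (0.09). *Grhl2*, which encodes an activator of *Cdh1*, was named after its values were seen. It was at 8.81, 8.87 and 8.84 in the mutant pools and 8.64, 8.54 and 8.61 in the wildtype pools (difference 0.24, standard error 0.06, adjusted p = 0.49), without overlap. *Rab25*, also named after its values were seen, a gene for a small GTPase of epithelia, was lower in every mutant pool (−0.24, adjusted p = 0.71).

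The visceral endoderm of the yolk sac is an epithelium rich in E-cadherin. Of its 10 markers all were above background, 9 differed above 0 and none passed, with a median of 0.17. Their summed level was 46069, 31449 and 37728 in the *Zic2* iso/iso pools and 29011, 38042 and 37841 in the wildtype pools. The groups overlapped, and mutant pool 1, the highest in *Cdh1*, was also the highest here. Mutant pool 2, the second highest in *Cdh1* (9.72), was below wildtype pools 2 and 3 here. *Ttr* differed by 0.15 and *Apoa1* by 0.03. *Apob*, which encodes a lipoprotein of the yolk sac and was named after its values were seen, was at 11.32, 10.91 and 11.26 in the mutant pools and 10.64, 10.66 and 10.69 in the wildtype pools, without overlap (difference 0.50, standard error 0.09, adjusted p = 0.15). Without mutant pool 1, *Cdh1* differed by 0.25 (adjusted p = 0.64). Of 5 surface ectoderm markers above background (of 7), all were below 0 (median −0.09, with *Tfap2c* at −0.02 and *Wnt6* at −0.07), and of 6 gut endoderm markers above background (of 8), 5 were below 0. Among the gut endoderm markers *Shh*, a signalling gene that the midline also expresses, fell (−0.86, adjusted p = 0.0075) and *Pyy*, a peptide hormone gene named after its values were seen, was lower in every mutant pool (−0.57, adjusted p = 0.20), while the brightest, *Trh* and *Foxa1*, were at −0.02 and −0.09. The summed level of the gut endoderm list ran from 4398 to 4807 in the mutant pools and from 4952 to 5305 in the wildtype pools, without overlap. With *Shh* taken out of the list the sums were 4180, 4365 and 4017 in the mutant pools and 4458, 4507 and 4306 in the wildtype pools, which overlap. The part of any of these tissues in the level of *Cdh1* was not tested.

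On the side of *Cdh2*, the 7 neural markers above background (of 10) had a median of 0.06, with *Otx2* at 0.06 and *Sox2* at 0.07. Of these 7, 4 were above 0 and 3 below. *Hes5*, named after its values were seen, was higher in every mutant pool (0.33, adjusted p = 0.61). *Nkx6-1*, named likewise, was at −0.33 with overlapping pools (adjusted p = 0.74). The 10 mesoderm and mesenchyme markers above background (of 13) had a median of −0.03, with *Pdgfra* at 0.14 and *Vim* at 0.07. Of these 10, 5 were above 0 and 5 below. The largest difference among the mesoderm markers, named after its values were seen, was that of *Tcf15*, a gene of the somites, at −0.52 without overlap (adjusted p = 0.27). *Meox1*, also of the somites, was at −0.28 with overlapping pools (adjusted p = 0.74). *Foxf1*, named after its values were seen, ran the other way, at 0.25 with overlapping pools (adjusted p = 0.77). The 6 heart markers above background (of 8, with 7 measured) were all below 0, with a median of −0.48. Their summed level was 11491, 12803 and 6602 in the *Zic2* iso/iso pools and 14940, 13175 and 16426 in the wildtype pools, without overlap. *Myl4* differed by −0.61 and *Actc1* by −0.66, and neither passed (adjusted p = 0.61 and 0.75). Without mutant pool 3, the lowest in both, *Myl4* was at −0.34 and *Actc1* at −0.28. What part heart tissue has in the level of *Cdh2* was not tested. Primitive blood markers ranged more widely within the mutant pools (9858, 2908 and 1378 summed) than within the wildtype pools (4436, 5120 and 6370), with *Hbb-bh1* at −0.93 and *Hba-x* at −0.80 (adjusted p = 0.93 and 0.92). Without mutant pool 3, *Hbb-bh1* was at −0.0067 and *Hba-x* at −0.09, and without mutant pool 1 they were at −1.92 and −1.64. The endothelium list, of which *Cdh5* is a member, had a median of −0.10 over 7 genes above background, with *Esam* at −0.10 and *Tek* at 0.01. Of these 7 genes, 2 were above 0 and 5 below. The list's summed level was 3452, 3513 and 3060 in the mutant pools and 3741, 3546 and 3659 in the wildtype pools. These did not overlap, but the highest mutant pool (3513) was close to the lowest wildtype pool (3546). The sums without overlap, here and in the gut endoderm and heart lists, were not tested. *Emcn* (−0.39, adjusted p = 0.69) and *Cldn5* (−0.29, adjusted p = 0.61), named after their values were seen, were lower in every mutant pool. Pools were apart in these 2 of the 7 genes, beside 11.6% of all genes above background for both directions together. Without mutant pool 3, *Emcn* was at −0.20 and *Cldn5* at −0.25. Of 10 trophoblast and decidua markers 7 had a probe and 4 were above background. The brightest of these, *Prl2c2* and *Plac1*, were at 0.04 and 0.08.

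The genes whose pattern over the 6 pools was most like that of *Cdh1* were *Msl1* (Pearson's r = 0.99), *Plekhd1* (0.99) and *Smad6* (0.99), among 10036 other genes above background. *Msl1* was at 9.54, 9.42 and 9.37 in the *Zic2* iso/iso pools and at 9.17, 9.21 and 9.13 in the wildtype pools. For *Cdh2* they were *Camk1* (0.99), *Prim2* (0.99) and *Pex10* (0.97), whose pools overlapped between genotypes. That overlap, like the separation in *Msl1*, follows from choosing genes by their likeness over the same pools. With only 6 pools these values are a description without a test. At the looser cut of an r over 0.9, 84 of the 10036 genes were like *Cdh1* and 63 were like *Cdh2*.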

How the data were processed

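The authors hybridised RNA from 6 pools of whole embryos to Illumina Mouse WG6 v2 arrays. What they deposited is a table of linear intensities (45281 probes, array medians 154 to 187), without background subtraction and without the variance stabilisation that their methods name. Pools are separate samples by their labels, and array number limits the precision.

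Intensities (floor 1) were taken to log2, quantile normalised and fitted with limma 3.58.1 in R 4.3.3 (lmFit and eBayes, no covariates, no filter), with Benjamini-Hochberg adjustment over all probes and a threshold of 0.05. Probes were named from the platform annotation, updated by Entrez number through RefSeq (GRCm38.p6): 34885 carry 1 symbol, 18 several and 10378 none. The brightest probe by mean log2 value stands for a gene. As background level served the 95th percentile of 1608 probes of gene families hardly used in embryos (beta-defensins, keratin-associated proteins, vomeronasal and olfactory receptors). Linear marker sums are over normalised values of each list's brightest probes.

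The genes, lists and tests were chosen with earlier results of these data known. Named in the text were all 9 genes, the 3 largest differences above background in each junction list and any gene past the threshold, the 2 brightest markers of each tissue, and the 3 genes most alike to *Cdh1* and *Cdh2*; further genes were named after their values were seen. The fit was tested on simulated data.

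Alternatives were no normalization between arrays, median centring, normexp (offset 50), a rewritten variance stabilising normalisation, a filter on dim probes, an intensity trend, a robust prior, arrayWeights, the replicate block, means over probes, other thresholds and background levels, and leaving out each pool. Added after seeing the data were the gut endoderm sum without *Shh* and differences of list genes without 1 pool.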

Additional observations from a re-analysis of the deposited data

How the results depend on the processing

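No cadherin or catenin gene passed the threshold in any of the 17 alternative fits, at thresholds of 0.01 and 0.10, or without any 1 pool. *Cdh1* kept its sign in all 17 (0.14 to 0.38, lowest adjusted p 0.36), as did *Cdh4* (−0.43 to −0.17, lowest adjusted p 0.14), *Cdh6*, *Ctnna1* and *Ctnnd1*. The smallest values of *Cdh1* and *Cdh4* came with all probes of the gene averaged, a dim probe included. For *Cdh1* the value was the same 0.14 with only probes above background averaged, since its dim probe was just above that level. In that setting *Cdh4* was at −0.36 and *Cdh1* minus *Cdh2* differed by 0.11 (exact permutation p = 0.3). *Cdh1* minus *Cdh2* kept its sign in all 13 alternatives (0.08 to 0.31).

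Genes with differences near 0 changed sign. *Cdh3* was at 0.0336 without normalization and 0.0186 with its probes above background averaged, *Cdh11* at −0.0021 with normexp and −0.00068 with arrayWeights, and *Ctnnb1* at −0.0175 with variance stabilising normalisation and −0.0075 with its probes above background averaged. Without 1 pool, *Cdh2* ran from −0.0130 to 0.0663, *Cdh3* from −0.12 to 0.0021, *Cdh11* from −0.0535 to 0.0789 and *Ctnnb1* from −0.0480 to 0.148. Genes that kept their sign also moved: *Ctnnd1* was at 0.04 without wildtype pool 3 (up to 0.21 without another pool), *Cdh6* at −0.0099 without wildtype pool 1 (down to −0.13) and *Ctnna1* at −0.01 without mutant pool 3 (down to −0.11). The cause was not tested. Over all probes 20 passed, against 4 without normalization, 11 with median centring, 31 with an intensity trend and 34 at a threshold of 0.10, and between 14 and 28 without 1 pool.

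With the replicate block 17 probes passed, and *Cdh1* and *Cdh4* had adjusted p of 0.54 and 0.40. Equal replicate numbers did not pair the pools (correlations of their deviations −0.08, −0.01 and −0.07). At a stricter background level (7.61) 8 of the 9 genes were above it, all but *Cdh11*. Dim probes limit what can be read for *Cdh2*, *Cdh6* and *Cdh11*.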
